A study of Rattus norvegicus with 9 samples.

Results

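The DOCA-salt kidney was compared with the sham Control kidney by single-nucleus ATAC sequencing (snATAC-Seq), an assay in which a transposase cuts open chromatin in each nucleus and each nucleus receives a barcode. All nuclei whose recorded treatment was DOCA or Control were taken, 19164 of the 53298 nuclei of the series (36.0%), with 11614 from DOCA and 7550 from Control. Each group had 2 libraries, 1 from a chromatin-only kit (scATAC) and 1 from a kit that captures RNA as well (Multiome). The other 5 of the 9 libraries came from DOCA rats given a drug. They entered the estimate of spread and served as the reference for neighbours on the map, and are not described for themselves.

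All rats were male Sprague-Dawley rats, and the labels give an age of 6 weeks. Control rats had sham surgery and received sesame oil and tap water. DOCA rats lost the left kidney and received deoxycorticosterone acetate at 50 mg/kg weekly in sesame oil, salt in the drinking water and a daily gavage of vehicle. The groups therefore differ in hormone, salt, gavage and kidney mass at the same time, and these cannot be told apart here. The study killed rats at 2 times after the start, the later at 6 weeks, and which time these libraries represent is not given in the sources used here. Whether the 6 weeks of the labels is an age or that time is not stated there either.

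Deoxycorticosterone acetate is a mineralocorticoid. Such hormones act in the principal cells of the collecting duct and in the late distal convoluted tubule, where they raise the reabsorption of sodium. Intercalated cells sit between the principal cells and carry acid and base, while the proximal tubule, upstream, reclaims most of the filtered salt, glucose and amino acids. Proximal tubule cells lose part of their mature program after injury, and in damaged kidneys macrophages and fibroblasts gather in the interstitium.

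The deposited values are a cell type label for each nucleus and a position on a 2-dimensional map (UMAP) in which nuclei with similar open chromatin lie close together. There were 12 labels. They were compared within compartments, since a share within a compartment does not move when the capture of another compartment moves. The proximal tubule (PT) held the convoluted (PCT), straight (PST) and injured (iPT) labels. The distal nephron held loop of Henle (LOH), distal convoluted tubule (DCT), principal cells (PC) and intercalated cells (IC). The interstitial compartment, taken here to include endothelium, held endothelial cells (Endo), fibroblasts, myofibroblasts (MyoFib) and macrophages (Mac). Podocytes stood alone. Accessibility at marker genes was not analysed here, so the labels are used as the authors gave them.

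The 4 libraries held 2455 (Control scATAC), 5095 (Control Multiome), 2471 (DOCA scATAC) and 9143 nuclei (DOCA Multiome). Libraries of 1 kit drew on the same barcode list, and the same barcode occurred in 5 cases in both scATAC libraries and in 86 cases in both Multiome libraries. An interval around the share in 1 library is a 95% Clopper-Pearson interval (exact), which covers no error other than that of counting. Changes are differences in log2 odds (a share over its remainder) or in the log2 ratio of a pair of labels, DOCA minus Control, from a limma fit with group and kit as terms, with p values adjusted by the Benjamini-Hochberg method. Nothing in the labels says whether the libraries came from separate rats, so p values measure the spread between these libraries.

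Within the compartments the DOCA kidney held a larger share of injured proximal tubule, principal cell and macrophage nuclei, and a smaller share of straight proximal tubule, intercalated, endothelial and myofibroblast nuclei. With limma, 7 of 11 labels passed an adjusted p of 0.05 (63.6%), 3 higher in DOCA (27.3%) and 4 lower (36.4%). The 2 DOCA libraries did not overlap the 2 Control libraries in 9 of the 11 (81.8%), and 10 of the 11 moved in the same direction in both kits. For 6 labels (PST, DCT, PC, Endo, MyoFib and Mac) the smaller of the changes in the 2 kits exceeded the larger of the differences between kits within a group. With only the 4 DOCA and Control libraries in the fit, 0 labels were called higher and 3 lower (PST, Endo and MyoFib). As a share of all nuclei, 2 were called higher (iPT and Mac) and 0 lower, and PST did not pass (-1.15, adjusted p = 0.155). The shares of a compartment sum to a whole, so these calls are not independent of each other.

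**Figure D1:**
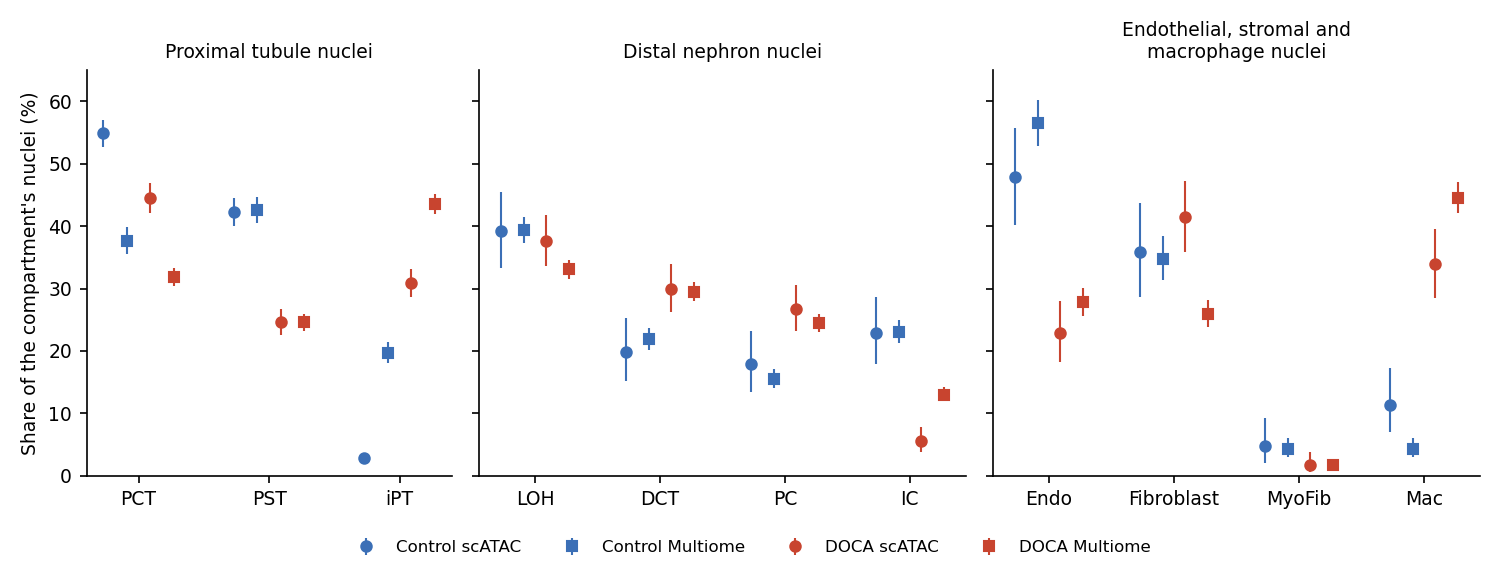
Share of each compartment's nuclei (%, y axis) carried by each label (x axis) in the 4 libraries, Control in blue and DOCA in red, scATAC as circles and Multiome as squares, with exact 95% intervals of counting error as bars. PST is near 42% of PT nuclei in both Control libraries and near 25% in both DOCA libraries, while the iPT shares of the 2 Control libraries lie far apart at 2.86% and 19.7%.

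The straight segment of the proximal tubule, which lies in the outer medulla and is sensitive to low oxygen, gave the closest repeat between kits. PST was 42.2% (scATAC) and 42.6% (Multiome) of the PT nuclei of Control, and 24.6% in both libraries of DOCA (392 of 1593 and 984 of 4001 nuclei). The means were 42.4% ± 0.239 (SD, n = 2) and 24.6% ± 0.00976 (SD, n = 2), a spread smaller than counting error, since the interval of the DOCA scATAC share alone ran from 22.5% to 26.8%. Its log2 odds fell by 1.17 (standard error 0.36, adjusted p = 0.0422 with limma), by 1.16 (scATAC) and 1.19 (Multiome) within the kits.

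The injured proximal tubule label moved further and repeated less well. It took 2.86% (57 of 1993) and 19.7% (415 of 2104) of Control PT nuclei, scATAC library first, and 30.9% (492 of 1593) and 43.5% (1742 of 4001) of DOCA PT nuclei. The groups did not overlap, but the kits of Control differed by a log2 odds of 3.05, more than the groups differed in the Multiome kit (1.65). The change was 2.78 (standard error 0.96, adjusted p = 0.0474 with limma). It was 1.24 (adjusted p = 0.201) without the Control scATAC library and 4.33 (adjusted p = 0.000938) without the Control Multiome library.

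PCT, the first stretch of the proximal tubule, was 54.9% and 37.7% of Control PT nuclei and 44.5% and 31.9% of DOCA PT nuclei, so the groups overlapped. Its change was -0.49 (adjusted p = 0.208 with limma). The balance of the straight to the convoluted segment, which leaves iPT out, was 0.770 and 1.13 PST nuclei per PCT nucleus in Control and 0.553 and 0.772 in DOCA. These ranges overlapped, and the change of that ratio was -0.51 (standard error 0.34, adjusted p = 0.234 with limma). The smaller PST share of PT nuclei was thus measured against a compartment in which iPT was larger. There were 0.0677 and 0.463 iPT nuclei per PST nucleus in Control and 1.26 and 1.77 in DOCA, a log2 change of 3.07 (standard error 0.99, adjusted p = 0.0477 with limma).

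Across the compartments, 7 of the 15 ratios of labels that share a compartment passed with limma (46.7%), 4 higher in DOCA (26.7%) and 3 lower (20%), and the groups did not overlap in 12 of the 15 (80%). With only the 4 DOCA and Control libraries in the fit, 0 of the 15 ratios, here and in the other compartments, passed with limma (3 at an unadjusted p under 0.05, lowest adjusted p = 0.135). In the PT compartment only iPT per PST passed. The ratio of iPT to PCT changed by 2.55 (adjusted p = 0.0714). The call of iPT per PST was lost when Control scATAC (1.52, adjusted p = 0.171), DOCA scATAC (3.11, adjusted p = 0.195) or DOCA Multiome (3.03, adjusted p = 0.18) was left out. The iPT share of PT nuclei was also below the threshold when DOCA scATAC (2.82, adjusted p = 0.15) or DOCA Multiome (2.74, adjusted p = 0.224) was left out, and the PST share when any 1 of the 4 was left out (-1.40 to -0.95, adjusted p between 0.0567 and 0.232). The iPT share call was also lost with a prior count of 1 (adjusted p = 0.0512), with a centred log-ratio (adjusted p = 0.0541) and with trend and robust fitting of the variance (adjusted p = 0.11), and the PST call with a centred log-ratio (adjusted p = 0.0535) and with no kit term (adjusted p = 0.054). With libraries thinned to equal numbers of nuclei, iPT per PST did not pass (2.91, adjusted p = 0.0685).

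**Figure D2:**
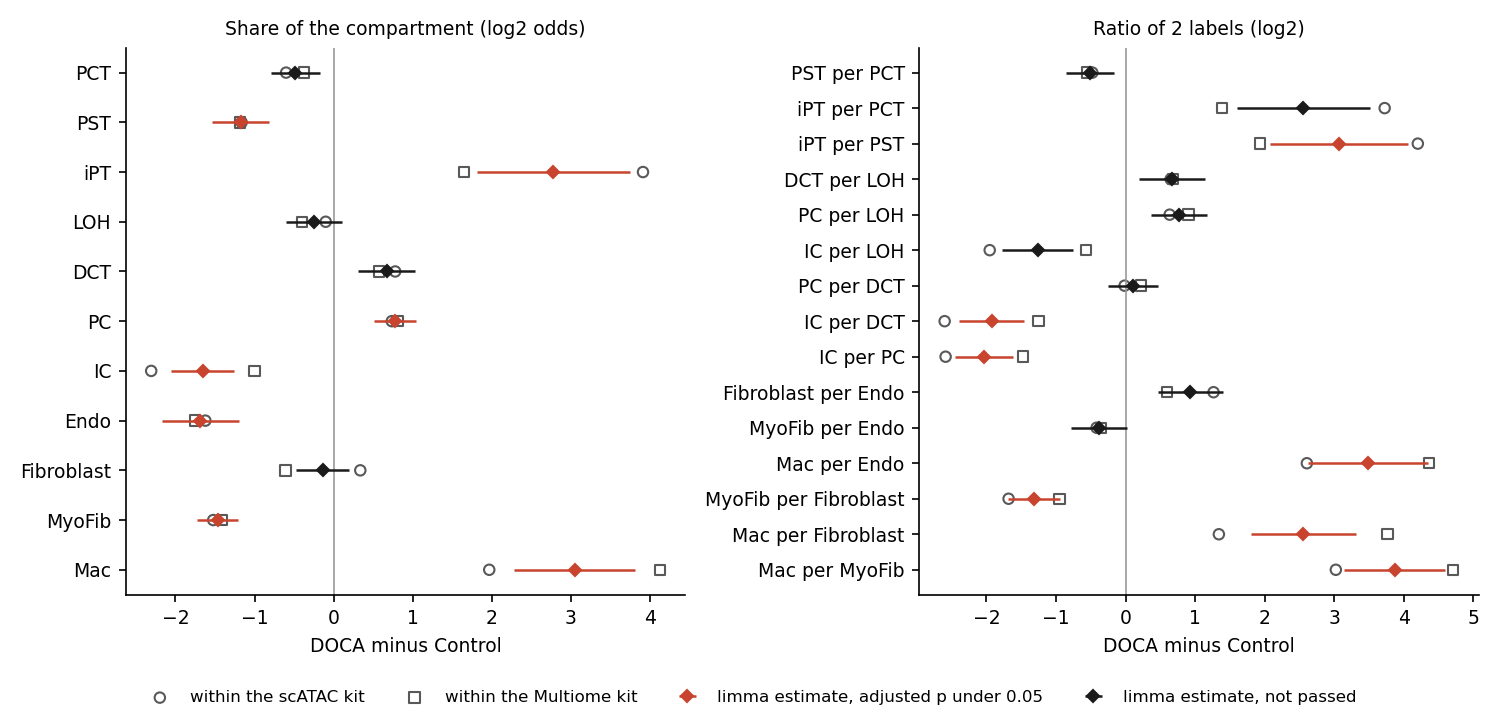
Change between DOCA and Control (x axis, log2) in the share of each label within its compartment (left) and in the 15 ratios of labels (right), with the difference within each kit as open symbols and the limma estimate ± its standard error as diamonds, red where the adjusted p is under 0.05. Open symbols of PST, PC, Endo and MyoFib nearly coincide, while those of iPT, IC and Mac lie apart but on the same side of 0.

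In the distal nephron the share of intercalated cells was lower in DOCA and that of principal cells higher. IC nuclei were 23.0% (59 of 257) and 23.1% (490 of 2125) of distal nuclei in the Control libraries, scATAC library first, and 5.63% (32 of 568) and 13.0% (459 of 3528) in the DOCA libraries. The 2 Control libraries were nearly equal and both DOCA libraries lay below them. The log2 odds of IC fell by 1.65 (standard error 0.40, adjusted p = 0.0315 with limma), by 2.31 (scATAC) and 1.00 (Multiome) within the kits.

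Principal cells, which reabsorb sodium through the epithelial sodium channel and water through aquaporin-2, were 17.9% and 15.6% of distal nuclei in Control and 26.8% and 24.5% in DOCA. The change of 0.77 (standard error 0.26, adjusted p = 0.0474 with limma) was 0.74 and 0.81 within the kits. DCT, the segment that reabsorbs sodium by the thiazide-sensitive cotransporter, was 19.8% and 21.9% of distal nuclei in Control and 29.9% and 29.5% in DOCA. The groups did not overlap and the kits gave 0.78 and 0.57, but the change of 0.67 did not pass (adjusted p = 0.157 with limma). LOH, which dilutes the urine, was 39.3% and 39.4% in Control and 37.7% and 33.1% in DOCA, a change of -0.25 (adjusted p = 0.568).

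Against each other, PC and DCT kept close ratios. There were 0.902 and 0.710 PC nuclei per DCT nucleus in Control and 0.894 and 0.831 in DOCA, and the change of 0.11 (standard error 0.35, adjusted p = 0.776 with limma) was -0.014 and 0.23 within the kits. With a standard error of 0.35 this does not show that the ratio stayed the same. Against both, IC was lower. There were 1.28 and 1.48 IC nuclei per PC nucleus in Control and 0.211 and 0.532 in DOCA, a log2 change of -2.03 (standard error 0.42, adjusted p = 0.024 with limma). Per DCT nucleus the values were 1.16 and 1.05 in Control and 0.188 and 0.442 in DOCA, a change of -1.92 (adjusted p = 0.027). The collecting duct normally holds more principal than intercalated cells, and in the Control libraries IC nuclei outnumbered PC nuclei while in the DOCA libraries PC nuclei outnumbered IC nuclei.

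The distal calls depended on single libraries and on the settings of the fit. The IC share was below the threshold when Control scATAC (-1.34, adjusted p = 0.106) or DOCA scATAC (-1.10, adjusted p = 0.117) was left out. The PC share did not pass with any 1 of the 4 libraries left out, with changes between 0.64 and 0.91 and adjusted p between 0.145 and 0.318. The PC call was also lost with no kit term (adjusted p = 0.167), with thinned libraries (0.63, adjusted p = 0.158) and with myofibroblasts left out of the fit (adjusted p = 0.1), and the IC call with trend and robust fitting of the variance (adjusted p = 0.257). The IC to PC ratio passed only without the Control Multiome library (-2.38, adjusted p = 0.00868), and had an adjusted p between 0.0709 and 0.136 without each of the others (-2.42 to -1.64). The IC to DCT ratio likewise passed only without the Control Multiome library (-2.48, adjusted p = 0.00731), with adjusted p between 0.0709 and 0.194 otherwise (-2.27 to -1.37). As a share of all nuclei the IC change was -0.95 (adjusted p = 0.2) and that of PC 1.18 (adjusted p = 0.155).

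In the interstitial compartment macrophages, which clear debris and release cytokines, differed most. They were 11.4% (19 of 167) and 4.34% (31 of 715) of interstitial nuclei in the Control libraries, scATAC library first, and 33.9% (102 of 301) and 44.5% (693 of 1556) in the DOCA libraries. The log2 odds rose by 3.05 (standard error 0.77, adjusted p = 0.0315 with limma), by 1.97 (scATAC) and 4.13 (Multiome) within the kits. The call was lost when DOCA scATAC (3.64, adjusted p = 0.113) or DOCA Multiome (2.45, adjusted p = 0.221) was left out.

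Endothelial nuclei were 47.9% and 56.5% of interstitial nuclei in Control and 22.9% and 27.8% in DOCA, a fall of 1.69 (standard error 0.49, adjusted p = 0.0416 with limma) that was nearly equal in the kits, at -1.62 and -1.75. As a share of all nuclei the endothelial change was -0.51 (adjusted p = 0.47), and with a centred log-ratio it was -1.01 (adjusted p = 0.0586). Without 1 library it passed only when the Control Multiome library was left out (-1.77, adjusted p = 0.0455), and was -1.60 (adjusted p = 0.106) without the Control scATAC library, -1.86 (adjusted p = 0.117) without the DOCA scATAC library and -1.52 (adjusted p = 0.224) without the DOCA Multiome library.

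Of the stromal labels, myofibroblasts passed and fibroblasts did not. In the Multiome kit the shares of both fell, and in the scATAC kit they went in opposite directions. Myofibroblasts, the contractile cells that lay down scar matrix, were 4.79% (8 of 167) and 4.34% (31 of 715) in Control and 1.66% (5 of 301) and 1.67% (26 of 1556) in DOCA. Their log2 odds fell by 1.47 (standard error 0.26, adjusted p = 0.0175 with limma), and by 1.52 and 1.41 within the kits, but the scATAC libraries held few such nuclei and the interval of the DOCA scATAC share ran from 0.542% to 3.83%. As a share of all nuclei the change was -0.87 (adjusted p = 0.225). Without 1 library the myofibroblast share passed only when the Control Multiome library was left out (-1.44, adjusted p = 0.0455), with adjusted p between 0.0695 and 0.113 otherwise (-1.56 to -1.37). Fibroblasts, the resident matrix-producing cells, were 35.9% and 34.8% in Control and 41.5% and 26.0% in DOCA, and the groups overlapped. Their change of -0.14 (adjusted p = 0.702 with limma) was 0.34 (scATAC) and -0.61 (Multiome) within the kits.

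The ratios do not depend on the sum over the compartment. There were 0.238 and 0.0767 macrophage nuclei per endothelial nucleus in Control and 1.48 and 1.60 in DOCA, a log2 change of 3.48 (standard error 0.86, adjusted p = 0.027 with limma). Macrophages per fibroblast changed by 2.55 (adjusted p = 0.0392), macrophages per myofibroblast by 3.87 (adjusted p = 0.024) and myofibroblasts per fibroblast by -1.31 (adjusted p = 0.0392). The ratio of fibroblasts to endothelial nuclei was 0.750 and 0.616 in Control and 1.81 and 0.933 in DOCA, a change of 0.93 that did not pass (adjusted p = 0.142), and that of myofibroblasts to endothelial nuclei changed by -0.38 (adjusted p = 0.407). Of the interstitial ratios that passed, macrophages per endothelial nucleus and per myofibroblast also passed without either Control library, and were below the threshold when DOCA scATAC (4.01 and 4.23, both adjusted p = 0.119) or DOCA Multiome (2.95 and 3.50, adjusted p = 0.131 and adjusted p = 0.0709) was left out. Macrophages per fibroblast passed only without the Control scATAC library (3.54, adjusted p = 0.000319), with adjusted p between 0.0926 and 0.198 otherwise (1.56 to 3.18). Myofibroblasts per fibroblast did not pass with any of the 4 left out (-1.57 to -1.06, adjusted p between 0.0926 and 0.31). With thinned libraries neither macrophages per fibroblast (2.55, adjusted p = 0.0599) nor myofibroblasts per fibroblast (-1.23, adjusted p = 0.0685) passed.

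The compartments themselves gave 1 call in 4 with limma (25%). The 4 compartments sum to the whole library, and the fit gave all of them 1 pooled spread (SD 0.46). Their results are therefore not independent of each other. Podocytes, the filter cells of the glomerulus, were 1.55% (38 of 2455) and 2.96% (151 of 5095) of nuclei in Control and 0.364% (9 of 2471) and 0.634% (58 of 9143) in DOCA, and their log2 odds fell by 2.15 (standard error 0.46, adjusted p = 0.00232). The call was lost when DOCA scATAC (-2.10, adjusted p = 0.0709) or DOCA Multiome (-2.19, adjusted p = 0.0583) was left out, with only the 4 libraries in the fit (adjusted p = 0.0667), with no kit term (adjusted p = 0.0578) and with the arcsine square root of the share (adjusted p = 0.206). PT nuclei were 81.2% and 41.3% of Control and 64.5% and 43.8% of DOCA libraries. Distal nuclei were 10.5% and 41.7% in Control and 23.0% and 38.6% in DOCA. In both compartments the 2 kits of Control lay further apart than the groups in either kit, and the groups moved in opposite directions in the 2 kits. None of PT (-0.55), distal (0.58) and interstitial nuclei (0.63) passed (all adjusted p = 0.257).

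On the map, the position of DOCA and Control nuclei was compared within each label, as its median in each library, in units of the radius of that label (the median distance of its nuclei from their centre, all libraries pooled). The radius was 2.26 UMAP units for PCT and 0.819 for fibroblasts. UMAP distances have no physical unit and are not even across the map, so they are read here only against the distance between the 2 kits of a group. The authors corrected batches before the map was made. If kit or library was the variable corrected, the distance between kits may have been reduced by that step. The same limit holds for the mixing of kits below. In 9 labels all 4 libraries had at least 20 nuclei. In 7 of the 9 (PCT, PST, LOH, DCT, IC, Endo and fibroblasts) the shift from Control to DOCA was longer in both kits than both distances between kits, and in 8 of the 9, all but iPT, the shifts in the 2 kits pointed within 45 degrees of each other.

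**Figure D3:**
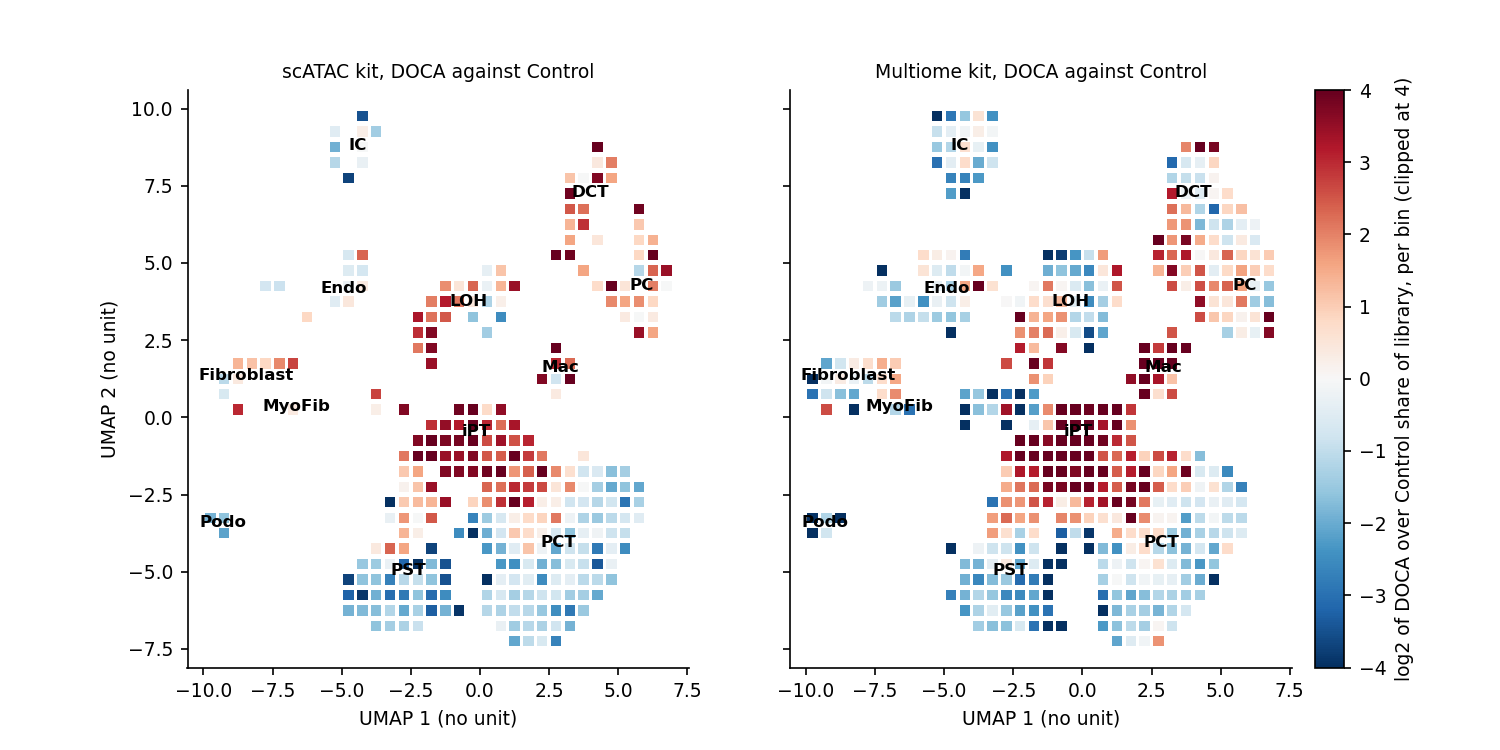
UMAP positions (axes in UMAP units, which have no physical meaning) in bins of 0.5 units with at least 5 nuclei, coloured by the log2 ratio of the DOCA to the Control share of library nuclei in that bin, in the scATAC kit (left) and the Multiome kit (right), with labels at their median position over all libraries. The side of the PCT and PST areas that faces iPT is red and the far side blue in both kits. The bins count nuclei of all labels, so the colours also carry changes in the shares of labels.

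The PCT median moved by 0.766 (scATAC) and 1.06 radii (Multiome), against 0.149 radii between the kits of Control and 0.206 between those of DOCA. The 2 shifts differed in direction by 1.2 degrees, and lay within 6.89 and 9.83 degrees of the direction to the main group of iPT nuclei. PST moved by 0.908 and 1.32 radii, against 0.169 and 0.385 between kits, with 5.4 degrees between the 2 shifts and 22.3 and 24.8 degrees to the iPT direction. The angle to the iPT direction was not particular to the proximal tubule, since the DCT shifts lay within 8.74 and 7.39 degrees of it and the fibroblast shifts at 39.7 and 39.8 degrees.

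LOH moved by 1.07 and 0.956 radii, scATAC kit first, against 0.552 and 0.285 between the kits of Control and DOCA. DCT moved by 0.650 and 0.587 radii, against 0.407 and 0.469, with 1.29 degrees between the shifts. Fibroblasts moved by 0.714 and 0.660 radii, against 0.211 and 0.204, with 0.942 degrees between the shifts, although their share went in opposite directions in the 2 kits. IC moved by 0.404 and 0.405 radii, against 0.0935 and 0.0965. Endothelial nuclei moved by 0.172 and 0.168 radii, little more than the 0.152 and 0.142 between kits. PC, whose share rose, moved by 0.0589 and 0.192 radii, and the first of these lay within the distance between the kits of DOCA (0.0804).

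**Figure D4:**
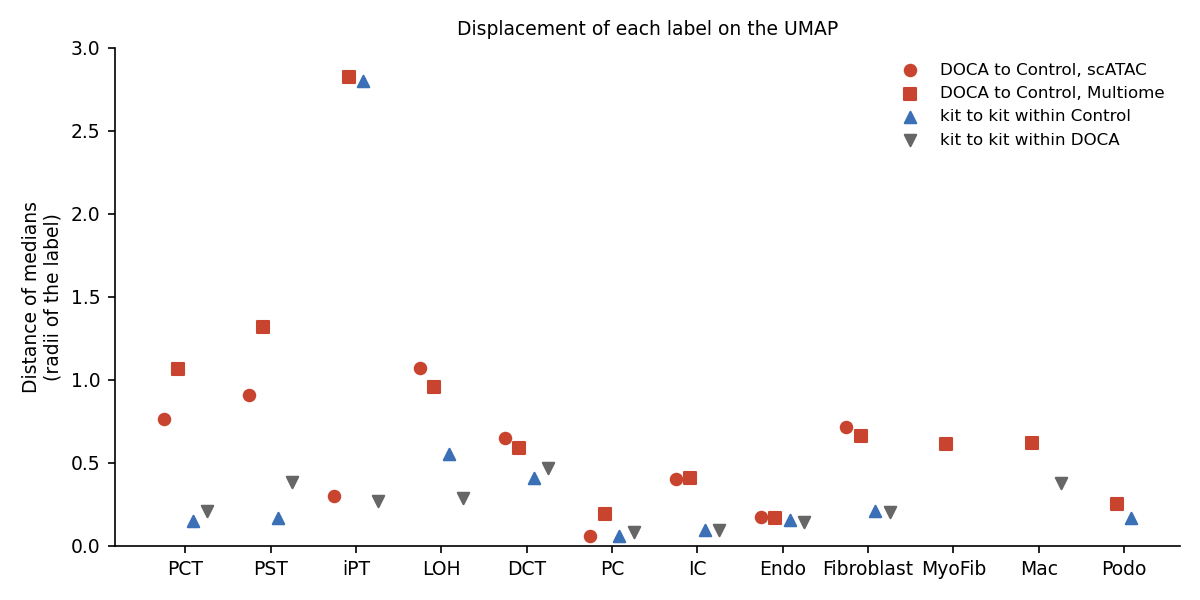
Distance between the median positions of a label in 2 libraries (y axis, in radii of the label) for DOCA against Control in each kit (red) and for the 2 kits within Control (blue) and within DOCA (grey). Red symbols lie above blue and grey ones for PCT, PST, LOH, DCT, IC, Endo and fibroblasts. In iPT the Multiome shift of 2.83 radii is matched by the distance of 2.80 between the kits of Control.

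With limma over all 9 libraries, 1 of the 11 labels that could be fitted was displaced (9.09%), in 1 of 22 coordinates (4.55%), and 5 labels had a coordinate at an unadjusted p under 0.05. PCT moved by 0.83 radii along UMAP 2 (standard error 0.12, adjusted p = 0.0238). It did not pass without the Control Multiome library (0.79, adjusted p = 0.145), the DOCA scATAC library (0.98, adjusted p = 0.0571) or the DOCA Multiome library (0.68, adjusted p = 0.235). With mean in place of median coordinates the shift was 0.45 radii and did not pass (adjusted p = 0.106). PST along UMAP 2 (1.10, adjusted p = 0.0793), LOH along UMAP 1 (-0.96, adjusted p = 0.0699) and fibroblasts along UMAP 1 (0.61, adjusted p = 0.0564) had an adjusted p under 0.1. So did PCT along UMAP 1 (-0.39, adjusted p = 0.0793) and fibroblasts along UMAP 2 (0.32, adjusted p = 0.0757). With the 4 libraries alone in the fit, whose spread is taken from DOCA and Control only, 7 of 9 labels were called. Myofibroblasts had too few nuclei in too many libraries for a fit.

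The injured proximal tubule label was the only label made of more than 1 separate island of at least 5% of its nuclei. The islands were found after the values were seen and are described without a test. The larger island held 70.2% (40 of 57) and 43.6% (181 of 415) of Control iPT nuclei, scATAC library first, and 91.9% (452 of 492) and 92.1% (1604 of 1742) of DOCA iPT nuclei. The smaller island held 21.1% (12 of 57) and 51.6% (214 of 415) in Control and 6.50% (32 of 492) and 5.05% (88 of 1742) in DOCA. Among these 4 libraries Control Multiome thus stood apart, with most of its iPT nuclei in the smaller island, and its iPT median lay there. In the 5 libraries of the other groups the larger island held between 51.4% and 90.0% of iPT nuclei, and the smaller between 7.04% and 45.7%. The 45.7% was that of the Amiloride library, whose code shares a stem with that of Control Multiome.

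Counted as a share of PT nuclei, the larger island was 2.01% and 8.60% in Control and 28.4% and 40.1% in DOCA, a difference in log2 odds of 4.26 (scATAC) and 2.83 (Multiome). The smaller island was 0.602% and 10.2% in Control and 2.01% and 2.20% in DOCA, a difference of 1.72 (scATAC) and -2.33 (Multiome). The larger island was higher in DOCA in both kits, while the smaller island went in opposite directions. Whether the 2 islands differ in accessible genes was not tested.

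Mixing was measured on equal numbers of nuclei from 2 libraries, at most 300 each, as the share of the 15 nearest nuclei of the same label that came from the other library, divided by the share under full mixing, so that 1 stands for full mixing and 0 for complete separation. Over the 9 labels the median index was 0.832 for DOCA and Control in 1 kit, 0.921 for scATAC and 0.743 for Multiome, against 0.956 for the 2 kits of a group. These medians rest on unlike numbers of nuclei, from 32 a library for IC in scATAC to 300. With at most 30 from each library they were 0.939 for scATAC, 0.872 for Multiome and 0.981 for the 2 kits of a group. In PCT it was 0.840 and 0.728 for DOCA and Control, against 0.963 and 0.965 for the kits of Control and of DOCA. In PST it was 0.753 and 0.655 against 0.917 and 0.952. In LOH it was 0.736 and 0.712 against 0.885 and 0.976, and in DCT 0.925 and 0.743 against 0.939 and 0.973. The gap between 0.925 and 0.939 in DCT was smaller than the SD over draws (0.0299 and 0.041). These 4 labels were those in which both group values lay below both kit values. The index was higher with fewer nuclei, and with at most 30 nuclei from each library IC and fibroblasts joined them, making 6 labels. With 5 neighbours in place of 15, PC, IC and fibroblasts joined, making 7.

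**Figure D5:**
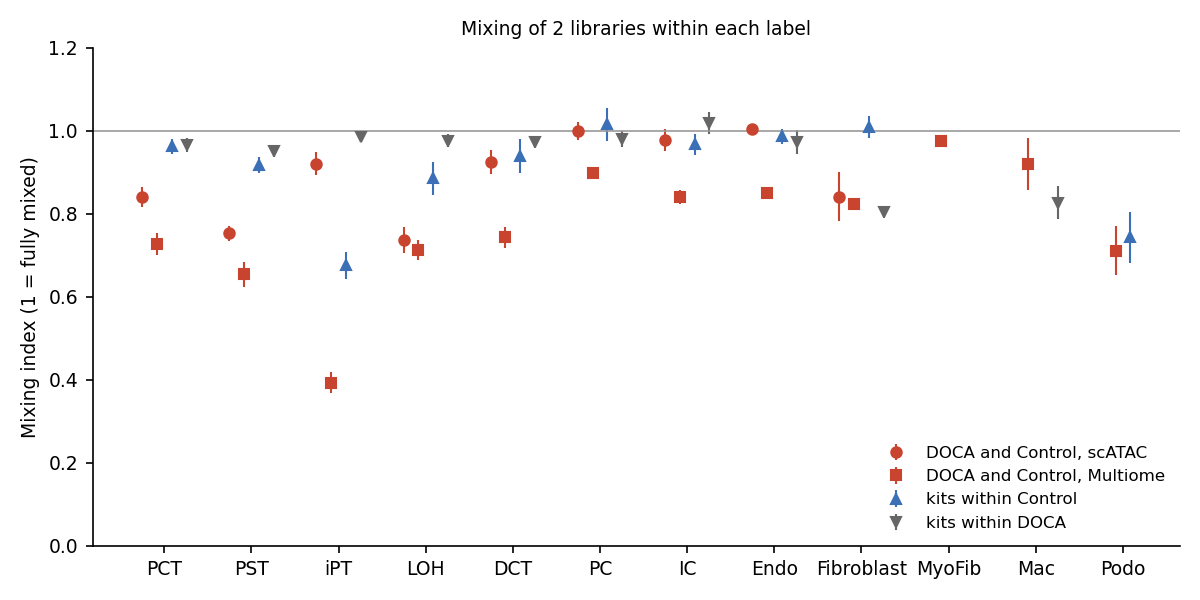
Mixing index (y axis, 1 = fully mixed) of 2 libraries within each label, for DOCA and Control in each kit (red) and for the kits within Control (blue) and within DOCA (grey), as the mean ± SD over 20 draws of equal numbers of nuclei. The SD covers the draw of nuclei only. PCT, PST, LOH and DCT have red symbols below blue and grey ones, while PC and Endo in the scATAC kit lie at 0.999 and 1.00.

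Separation in PCT and PST was uneven between the groups. In the draws, 19.3% (scATAC) and 30.3% (Multiome) of DOCA PCT nuclei had at most 1 Control nucleus among their 15 neighbours, while 0.317% and 6.08% of Control PCT nuclei had so few DOCA neighbours. In PST the shares were 19.0% and 30.7% of DOCA nuclei and 4.02% and 11.6% of Control nuclei. The DOCA nuclei of these labels thus reached into areas of the map that held few Control nuclei of the same label, more often than the reverse. This was not particular to PCT and PST. In DCT the shares were 4.12% and 18.1% of DOCA nuclei and 0% and 10.3% of Control nuclei. In iPT they were 0% on both sides in scATAC, and 43% of DOCA and 56% of Control nuclei in Multiome. LOH and fibroblasts did not go the same way in both kits. In iPT the index was 0.921 for scATAC, from 57 nuclei a library, and 0.392 for Multiome, where the Control nuclei lay mostly in the other island. For endothelial cells and PC the index with 15 neighbours was at least 0.849 in each kit.

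The spread of each label around its own median also differed. It was larger in DOCA in both kits for 5 of the 9 labels. Among these 5, only in PST was the group difference in each kit larger than both differences between kits within a group. For PST the radius was 1.41 and 1.31 UMAP units in Control, scATAC library first, and 1.91 and 2.10 in DOCA. For DCT it was 1.09 and 0.740 in Control and 1.33 and 1.22 in DOCA. For LOH it was 1.03 and 0.830 in Control and 1.10 and 1.27 in DOCA. PCT had 2.07 and 2.00 in Control and 2.13 and 2.15 in DOCA, and fibroblasts 0.759 and 0.716 against 1.27 and 0.910. The ratio of DOCA to Control was 1.36 and 1.60 for PST, 1.23 and 1.65 for DCT, 1.67 and 1.27 for fibroblasts, 1.06 and 1.53 for LOH and 1.03 and 1.07 for PCT. IC was the only label with a smaller spread in DOCA in both kits, at 0.945 and 0.880 of the Control radius. The smaller of these IC differences lay below the difference between the kits of DOCA.

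To ask which labels the nuclei lay next to, the 15 nearest nuclei were taken from the 5 libraries of the other groups, so that every library was set against the same reference. All 5 came from DOCA rats given a drug, and no Control library was among them, so the reference is not neutral between the groups. With limma on the DOCA and Control libraries, the share of neighbours with another label passed in 0 of 9 labels (0%), and in 2 at an unadjusted p under 0.05, PCT (1.15, standard error 0.22) and PC (1.19, standard error 0.29), both with an adjusted p of 0.154. The fit left 1 residual degree of freedom for each label.

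The neighbours that touched iPT are given as values. At least 1 iPT nucleus was among the neighbours of 2.19% (24 of 1094) and 2.02% (16 of 793) of Control PCT nuclei, scATAC library first, and of 12.1% (86 of 709) and 15.6% (199 of 1275) of DOCA PCT nuclei. The values of PST were 2.26% (19 of 842) and 2.68% (24 of 896) in Control and 10.7% (42 of 392) and 16.3% (160 of 984) in DOCA. The 2 libraries of each group gave similar shares for PCT, and in both labels the groups did not overlap. In LOH the shares with an iPT neighbour were 1.98% (2 of 101) and 0.597% (5 of 838) in Control and 2.34% (5 of 214) and 3.60% (42 of 1167) in DOCA, so the groups did not overlap there either. The interval of the Control scATAC share in LOH reached 6.97% and covered both DOCA shares. Of all neighbours of DCT nuclei, iPT nuclei made up at most 0.0572% in the Control libraries and at least 0.327% in the DOCA libraries, and for PC nuclei these values were 0.141% and 0.363%. In other labels this share overlapped between the groups. It was 0.226% and 0.816% in Control and 1.04% and 0.668% in DOCA for IC. For endothelial nuclei it was 0.167% and 0.248% against 0% and 0.585%, and for fibroblasts 0.222% and 0.107% against 0.107% and 0.677%.

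In the distal nephron, 23.9% (11 of 46) and 16.6% (55 of 331) of Control PC nuclei had a DCT nucleus among their neighbours, scATAC library first, against 34.2% (52 of 152) and 32.9% (284 of 863) of DOCA PC nuclei. The DOCA libraries lay above the Control libraries, but the interval of the Control scATAC share, from 46 nuclei, reached 38.8% and covered both DOCA shares. The reverse, DCT nuclei with a PC neighbour, gave 17.6% and 12.7% in Control and 16.5% and 14.8% in DOCA, and those ranges overlapped. The authors made the map and its clusters from open chromatin that included these libraries, and named clusters by accessibility at marker genes. They also describe a transfer of labels from their single-nucleus RNA data. Label and position are therefore not independent measures.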

How the data were processed

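Male Sprague-Dawley rat kidneys were profiled by the authors with scATAC and Multiome kits. The authors processed reads with Cell Ranger ATAC 1.1.0 against rn6 and used Signac 1.3.0 to filter nuclei on fragments, reads in peaks, nucleosome signal and TSS enrichment, to correct batches with Harmony (the variable corrected is not given in the sources used here), to cluster and to name labels. These filters act on every share. The deposited UMAP coordinates are a score without a unit, and the deposited treatment, library and cell type columns are names. The study's main text and its supplementary methods differ on how many data sets were merged, so whether libraries beyond these 9 shaped the map is unclear.

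The kit of each library code was assigned from shared barcodes (libraries of different kits shared at most 1) and could not be checked otherwise. The 2 DOCA codes share a stem, as do the 2 Spironolactone codes, and the Control codes share their leading number. The Control Multiome and Amiloride codes also share a stem. Whether libraries with related codes came from 1 kidney or rat is not stated in the sources used here, so the spread may in part be that between repeat libraries of a kidney. Doublets were not called here, and no nuclei were filtered.

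Counts and neighbours were computed in Python 3.11.15 (pandas 2.3.3, scikit-learn 1.9.0) and intervals with scipy 1.17.1. Log2 odds and log2 ratios used a prior count of 0.5. R 4.3.3 and limma 3.58.1 fitted group and kit over all 9 libraries (border shares over 4), with Benjamini-Hochberg adjustment over the items fitted and a threshold of 0.05. Libraries, not nuclei, were the replicates. Steps were tested on simulated data. Alternatives are given in the closing section. All 12 labels are accounted for, and the labels that passed and iPT, PST, PCT, PC, DCT and Mac are described in full. The members, compartments and lists were chosen with earlier results of these data known, and iPT islands, spread, neighbour pairs and single libraries named were chosen after their values were seen.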

Additional observations from a re-analysis of the deposited data

Results flagged for a closer look

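In the values below the 2 kits moved in different directions between DOCA and Control. With 1 library per group and kit, the difference between kits was not tested.

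The fibroblast share of the interstitial compartment changed by -0.61 in log2 odds in the Multiome kit and by 0.34 in the scATAC kit. The log2 ratio of PC to DCT changed by 0.23 in the Multiome kit and by -0.014 in the scATAC kit. The PT compartment, as a share of all nuclei, changed by 0.15 in the Multiome kit and by -1.25 in the scATAC kit, and the distal compartment by -0.19 and 1.35. The smaller iPT island, as a share of PT nuclei, changed by -2.33 in the Multiome kit and by 1.72 in the scATAC kit.

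The iPT median moved by 2.83 radii in the Multiome kit and by 0.302 radii in the scATAC kit, at 139 degrees to each other. The Control Multiome library, in which 51.6% of iPT nuclei lay in the smaller island, stood 2.80 radii from the Control scATAC library, while the 2 DOCA libraries lay 0.269 radii apart.

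Around their own median, iPT nuclei had a DOCA radius of 1.30 times the Control radius in the Multiome kit and 0.886 times in the scATAC kit. The ratio was 0.956 and 1.03 for PC and 0.711 and 1.01 for endothelial nuclei. The share of reference neighbours with another label changed by 1.75 percentage points in the Multiome kit and -3.22 in the scATAC kit for DCT, by 2.41 and -5.73 for LOH and by 2.59 and -4.22 for iPT. The share of nuclei with at least 1 neighbour of a given label changed by 2.16 and -1.18 percentage points for DCT nuclei beside PC, by 9.12 and -1.90 for iPT nuclei beside PCT and by -18.8 and 4.14 for iPT nuclei beside LOH.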

How the results depend on the processing

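Of 414 values under alternative settings for 39 items (all labels within compartments, ratios and compartments, but of the map only the 7 of 22 coordinates and 2 of 9 border shares with an unadjusted p under 0.05, so calls gained by other coordinates are not counted), 303 kept their direction and side of the threshold, 80 lost the call, 20 gained one and 11 reversed. The cause was not tested unless stated. With 2 libraries a side, an arm with 1 library left is assumed to vary like the other groups.

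The number of labels called within compartments (7) was 3 with only the 4 DOCA and Control libraries in the fit, 4 with a centred log-ratio, 2 as a share of all nuclei, and from 0 (without DOCA scATAC) to 5 (without Control Multiome) with 1 library left out, being 1 without Control scATAC or DOCA Multiome. Under these settings 11 labels were tested. The ratios called (7) were 0 with only the 4 libraries, 4 with libraries thinned to 1817 nuclei, and from 0 (without either DOCA library) to 6 with 1 left out. The compartments called (1) were 0 with only the 4 libraries, 0 with no kit term, 0 with the arcsine square root, 3 with a centred log-ratio, and from 0 to 4 (without Control Multiome) with 1 left out. The displaced labels (1) were 0 with mean in place of median coordinates, 7 with only the 4 libraries, 4 with no kit term, 5 with a trended and robust variance (chosen after seeing the data), and from 0 to 2 with 1 left out. The border count stayed at 0 under 5 or 30 neighbours and no kit term, and with 1 library left out it could not be fitted. The median mixing index was 0.775 with 5 neighbours and 0.906 with at most 30 nuclei (chosen after seeing the data). For the 2 kits of a group it was 0.940 and 0.981 under these settings.

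Reversals were PCT with iPT left out of its compartment (0.51), where it is set against PST alone, LOH (-0.63 to 0.14 with 1 library left out, 0.36 as a share of all nuclei), fibroblasts (-0.55 to 0.28 with 1 left out, 0.084 without DOCA Multiome, 0.46 as a share of all nuclei), PC per DCT (-0.22 thinned, -0.10 to 0.31 with 1 left out), the PT compartment (-1.32 to 0.21 with 1 left out, 0.17 as a centred log-ratio) and the distal compartment (-0.14 to 1.30 with 1 left out). None of these passed before the change. The sample titles give DOCA and Control no number in common. Their libraries correspond by kit alone, so the fit of the 4 libraries with kit as a term, given above, is the analysis paired by kit. The 257 distal and 167 interstitial nuclei of the Control scATAC library limit the precision of its shares.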
